A study of Homo sapiens with 12 samples.

Results

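Collagen genes encode the alpha chains that wind together into the triple helices of the extracellular matrix, and they were followed in SK-UT-1 cells, an established line from a human uterine leiomyosarcoma, a malignant smooth muscle tumour. The members were all symbols of the expression table of the form COL, number, A, number, which gave 43 of 22784 symbols after antisense RNAs and a pseudogene were left out. Cells had received the DMSO vehicle (VEH), 5 µM JQ1 or 5 µM I-BET 762 for 48 h, with 3, 4 and 3 libraries analysed, and all of them came from the same line, so each group stands for 1 tumour's cells in culture. JQ1 and I-BET 762 are small-molecule BET inhibitors, which block bromodomains that bind acetylated histones. JQ1 carries a thiophene ring fused to its diazepine core and I-BET 762 a benzene ring. The comparisons ask how the transcriptome of these cells differs with and without a BET inhibitor.

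Levels are normalized counts, that is reads per gene divided by the library's DESeq2 size factor, and levels of different genes are compared only per kb of annotated exon. Libraries held between 35564586 and 39658989 reads on genes, and 3 reads, the upper limit that a count of 0 allows, equal 2.73 to 3.30 normalized counts. This limit covers counting error only. A gene was tested with limma where its normalized count reached 10 in at least 3 libraries, which held for 26 of the 43 collagen genes and 14839 genes in all. A gene was called changed at a Benjamini-Hochberg adjusted p under 0.05 and a fold change over 1.5. The smooth muscle markers ACTA2, TAGLN, CNN1, DES, CALD1 and SMTN were detected, and MYOCD, ESR1 and PGR were at or near 0. Of the 5 fibroblast markers listed, PDGFRA, THY1 and FAP passed the filter and DCN and LUM had at most 4 reads in every library. The summed smooth muscle markers were mostly CALD1 and ACTA2. They lay between 20340 and 20968 normalized counts with VEH, between 10619 and 11229 with JQ1 and between 11758 and 12327 with I-BET 762. The members moved unequally, and mean TAGLN counts were 1598.7 with VEH, 125.7 with JQ1 and 156.7 with I-BET 762. In the same order CNN1 had 95.4, 7.06 and 14.5, and DES 187, 7.79 and 20.1, with as few as 2 DES reads in a JQ1 library. SMTN means were higher after treatment, at 2324, 2644 and 2657, with libraries overlapping VEH. The summed fibroblast markers were mostly THY1 and FAP. They lay between 2866 and 2906 with VEH, 1863 and 2079 with JQ1, and 2360 and 2406 with I-BET 762. The order of these sums was that seen for most collagen genes below. Mean THY1 counts were 2148.5 with VEH, 1789.4 with JQ1 and 2110 with I-BET 762, where VEH and I-BET 762 libraries overlapped. Mean FAP counts were 720.6, 162 and 254.9. The part of either list in the results was not tested. No endothelial or leukocyte marker listed passed the filter. Nothing in the labels says that the libraries came from separate cultures, so p-values measure only the spread between these libraries.

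Collagens differ in how their triple helices assemble. Fibrillar collagens (types I, II, III, V and XXVII here) pack into banded fibrils, with type V at the fibril core and type III beside type I in compliant tissues such as the uterine wall. Type IV collagen forms the sheet-like network of basement membranes, which surround each smooth muscle cell. FACIT collagens sit on the surface of fibrils, type VI forms beaded microfilaments near cells, type VII forms the anchoring fibrils of epithelia, multiplexins lie in basement membrane zones, and a few collagens, such as type XVII, span the cell membrane. Which chains are made matters because some types need a set ratio of distinct chains, for example a pair of COL1A1 chains with a single COL1A2 chain.

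In VEH libraries the fibrillar gene COL5A2 had the highest level per kb, at 8679 ± 286 normalized counts per kb (SD, n = 3). COL3A1 followed at 4259 ± 178, then COL1A2 at 1687 ± 193 and COL6A3 at 1495 ± 181, and the last pair overlapped between libraries. COL6A2 (738 ± 36.4), COL6A1 (531 ± 54.3), COL21A1 (381 ± 21.7), COL9A2 (247 ± 8.66) and COL17A1 (169.9 ± 4.34) came next, all in normalized counts per kb. The partners of the abundant chains were far lower: COL1A1, which supplies most chains of type I collagen, stood at 19.3 ± 4.72 normalized counts per kb and COL5A1 at 111 ± 12. With JQ1 the order became COL5A2 (7949 ± 201), COL1A2 (961 ± 141), COL6A2 (792 ± 137), COL6A1 (556 ± 68.6), COL3A1 (391 ± 39.1) and COL6A3 (255 ± 41.2), where COL1A2 and COL6A2 overlapped between libraries. With I-BET 762 it was COL5A2 (8684 ± 338), COL1A2 (1214 ± 62.4), COL3A1 (839 ± 58.0), COL6A2 (746 ± 10.7), COL6A1 (553 ± 11.9) and COL6A3 (454 ± 5.81).

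**Figure D1:**
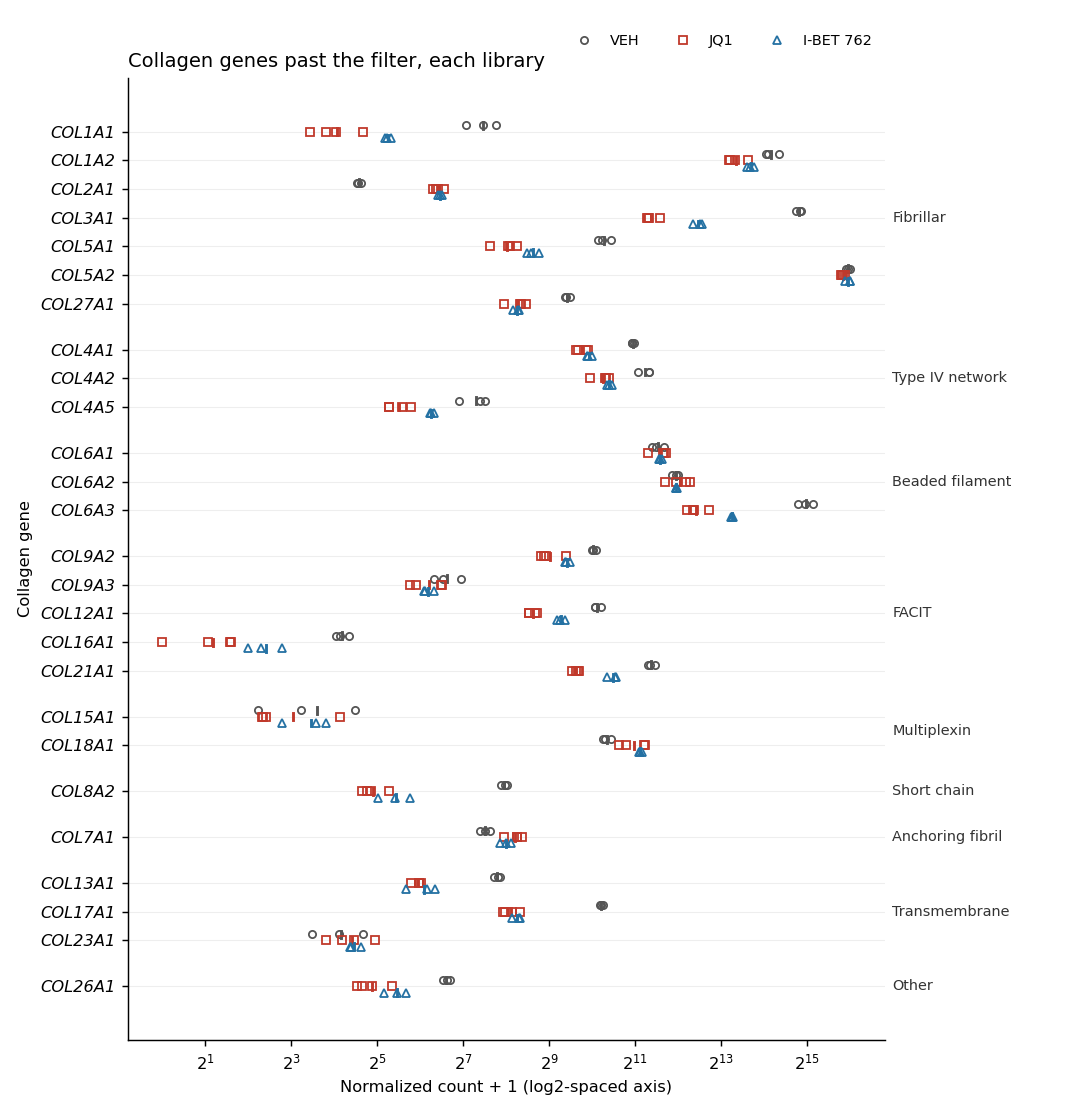
Level of each of the 26 tested collagen genes in every library, as normalized count plus 1 on a log2-spaced axis and not divided by length, with genes grouped by class, 1 point per library of the VEH, JQ1 and I-BET 762 groups and a tick at each group mean. COL5A2 sits at the top with all 3 groups together, whereas the treated libraries of COL3A1 and COL6A3 lie below those of VEH and the treated libraries of COL2A1 lie above.

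Most tested collagen genes were lower with either inhibitor. With JQ1, 17 of the 26 fell, 3 rose (COL2A1, COL7A1 and COL18A1) and 6 were not called, against 36.1% of all tested genes called, 22.8% lower and 13.3% higher. The median log2 fold change of the 26 was −1.17, and that of all tested genes was 0.01. With I-BET 762, 16 fell, 2 rose (COL2A1 and COL18A1) and 8 were not called, against 26.9% of all tested genes called, 17.9% lower and 8.96% higher, with a median of −0.86 for the collagen genes and −0.00063 for all genes. Both inhibitors shared the VEH libraries, so the lists are not independent: 16 genes fell and 2 rose with both, COL1A2 fell and COL7A1 rose with JQ1 alone past the threshold, and 0 went in opposite directions. COL16A1 passed the filter only through the VEH group and therefore had to be lower. Without it 16 of 25 fell with JQ1 and 15 of 25 with I-BET 762.

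Every JQ1 library lay below every VEH library for 18 of the 26 genes and above for 3, where 34.3% and 34.1% of all tested genes did so. For I-BET 762 the counts were 17 below and 3 above, with 36.2% and 34.8% over all tested genes. By class, JQ1 lowered 5 of 7 tested fibrillar genes, 3 of 3 type IV genes and 9 of 16 other genes, and I-BET 762 lowered 4 of 7, 3 of 3 and 9 of 16. When each library was scaled to the same total, the median log2 fold change of all tested genes with JQ1 was −0.18. Under that scaling 18 collagen genes fell with JQ1 and 1 rose.

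**Figure D2:**
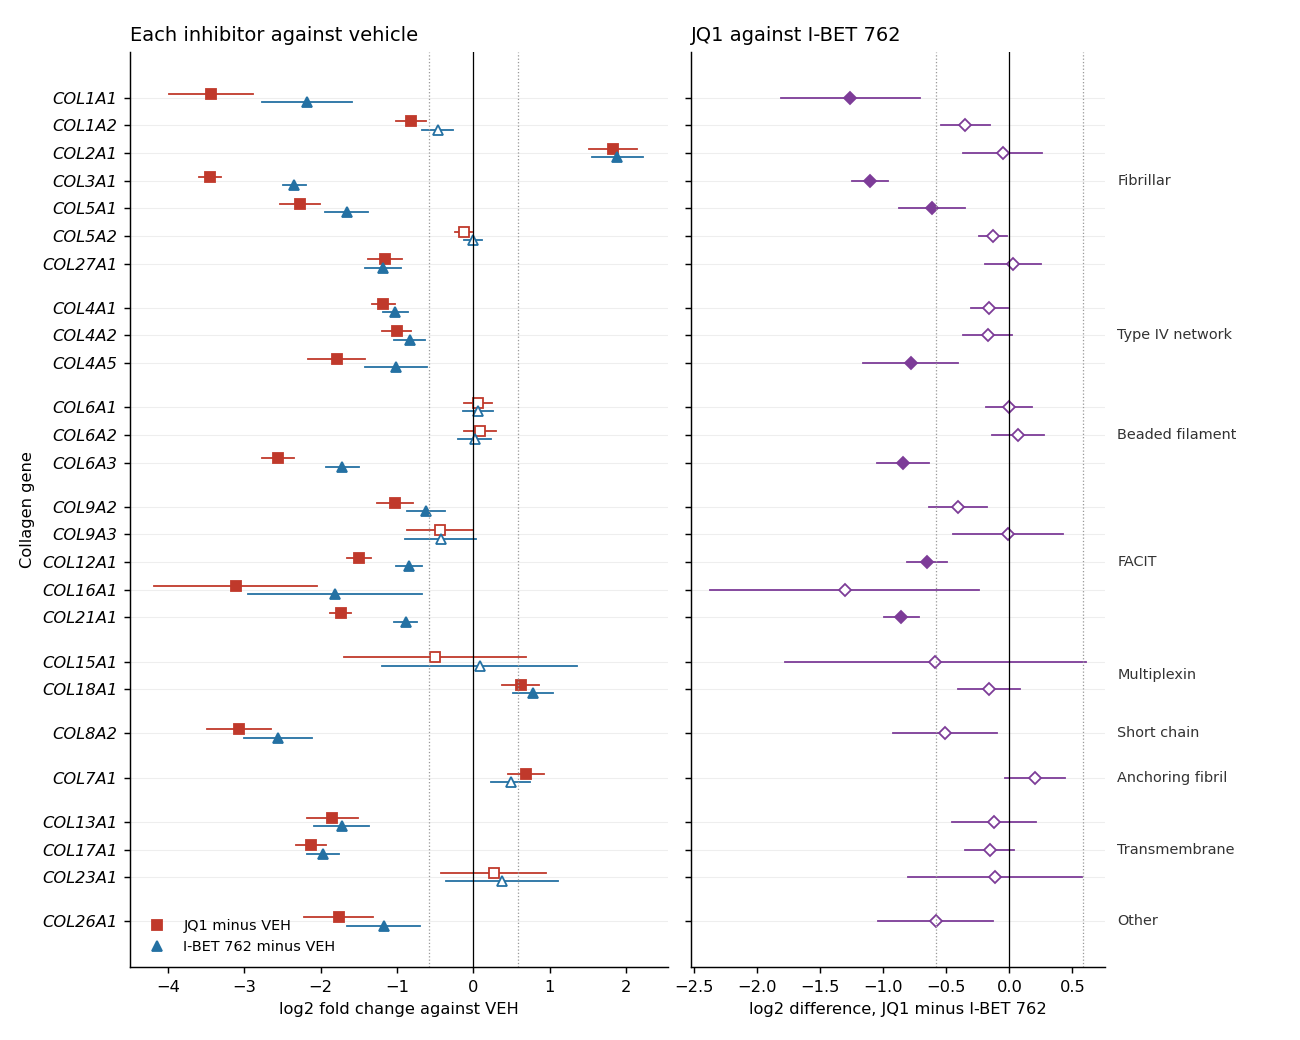
Log2 fold change with JQ1 and with I-BET 762 against VEH for each tested collagen gene (left) and log2 difference of JQ1 from I-BET 762 (right), with bars for the 95% confidence interval from limma, filled points for called genes and dotted lines at a 1.5-fold change. Fold changes with JQ1 run from −3.45 for COL3A1 to 1.84 for COL2A1, and COL6A1, COL6A2 and COL5A2 sit near 0.

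Summed over all 43 genes, collagen took 0.468% ± 0.0282 of the normalized counts in VEH libraries (SD, n = 3), 0.229% ± 0.0147 in JQ1 libraries (n = 4) and 0.288% ± 0.00705 in I-BET 762 libraries (n = 3). The treated libraries did not overlap the VEH libraries. The collagen sum itself was 164394 ± 7167 normalized counts with VEH, 91307 ± 3306 with JQ1 and 108153 ± 3658 with I-BET 762. Total normalized counts were higher in all treated libraries, so the share fell more than the sum. Within this sum the share of COL5A2 went from 38.7% with VEH to 63.8% with JQ1 and 58.8% with I-BET 762. The share of COL3A1 went from 17.5% to 2.90% and 5.24%, and that of COL6A3 from 19.5% to 5.99% and 9.03%. COL1A2 held 11.1%, 11.4% and 12.1%. None of these counts is divided by exon length, so the shares do not rank the genes per kb. The shares rest on a few abundant genes, and without COL5A2 the sum was 0.287%, 0.0830% and 0.119% of normalized counts.

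**Figure D3:**
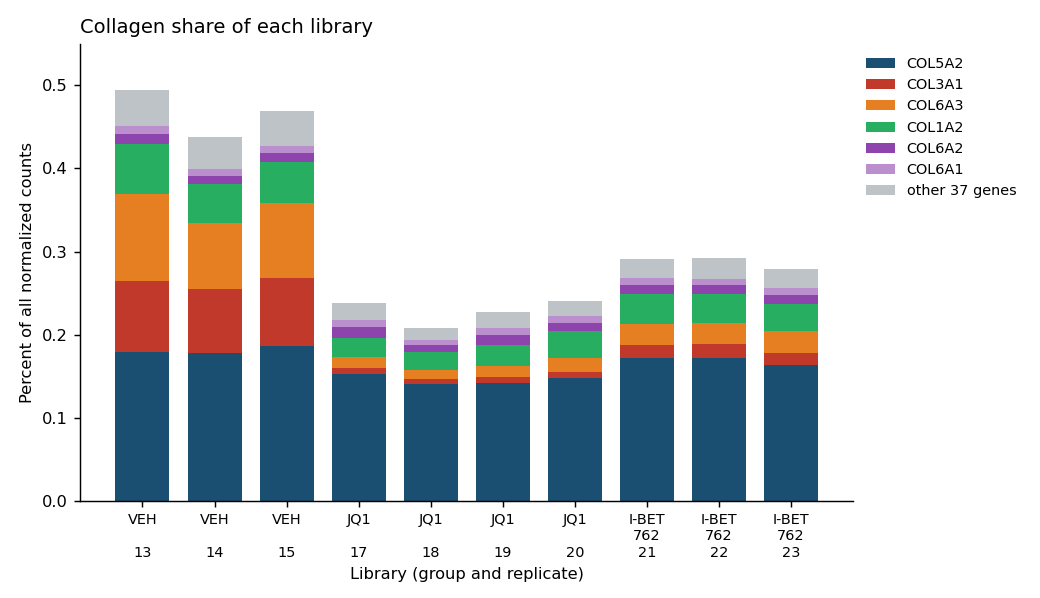
Share of each library's normalized counts, not divided by length, taken by collagen genes, in percent. Bars are stacked from 0, with 6 genes drawn singly and the other 37 summed. The bars of the 3 VEH libraries are highest, and COL5A2 makes up most of each treated bar.

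Among the fibrillar genes, COL3A1, the chain of type III collagen, and COL1A1 had the lowest fold changes with JQ1, within error of each other and of a few low genes such as COL16A1. The COL3A1 normalized counts were 29612, 27402 and 29335 in VEH replicates 13, 14 and 15, then 2472, 2519.8, 2549 and 3039 in JQ1 replicates 17, 18, 19 and 20, and 5806, 5981 and 5232 in I-BET 762 replicates 21, 22 and 23. All further values are given in this order of replicates. The groups did not overlap, and the log2 fold change was −3.45 (SE 0.07, limma adjusted p = 3.83e-15) with JQ1 and −2.34 (SE 0.07, limma adjusted p = 1.42e-12) with I-BET 762. COL3A1 (chromosome 2, 188974373 to 189012746, hg38) lies tail to tail with COL5A2 (189031898 to 189225312), with 19151 bases between the annotated genes.

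COL5A2, a chain of type V collagen, stayed near its VEH level. Its counts were 61530.2, 63337 and 65704 with VEH, 59916, 58559, 56376 and 57864 with JQ1 and 64791, 65182 and 60712 with I-BET 762. JQ1 libraries were all below VEH by a small margin, at a log2 fold change of −0.13 (limma adjusted p = 0.0400) that was under the 1.5-fold threshold, and the I-BET 762 libraries overlapped VEH at 0.00 (limma adjusted p = 0.994). COL5A1, the other type V chain measured above the filter, fell instead. Its counts of 1386, 1128 and 1195 with VEH stood against 262, 196, 305 and 269 with JQ1 and 359, 433 and 382 with I-BET 762. The log2 fold changes were −2.27 and −1.66, and neither treated group overlapped VEH.

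Type I collagen chains moved unequally. COL1A1 counts were 217, 174 and 132 with VEH, 15.4, 9.79, 13.0 and 24.3 with JQ1 and 35.4, 39.1 and 36.4 with I-BET 762. Every group was separate from the others, and the gene fell by 3.44 on the log2 scale with JQ1 (SE 0.26, limma adjusted p = 6.93e-09) and by 2.18 with I-BET 762 (SE 0.28, limma adjusted p = 5.26e-06). COL1A2 counts with VEH were 20623, 16734 and 17357, followed by 9367, 9325, 10270.5 and 12582 with JQ1 and 13828, 13080.4 and 12482 with I-BET 762. COL1A2 fell by 0.82 on the log2 scale with JQ1 (SE 0.09, limma adjusted p = 7.90e-07). With I-BET 762 its difference of −0.47 (SE 0.10, limma adjusted p = 0.000660) stayed under 1.5-fold, although all 3 libraries were below VEH.

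COL2A1, the chain of cartilage type II collagen, rose with both inhibitors from a low level. Its counts were 22.3, 22.2 and 23.7 with VEH, 78.0, 83.8, 81.0 and 92.3 with JQ1 and 86.6, 90.2 and 83.7 with I-BET 762. The log2 fold changes were 1.84 (SE 0.15, limma adjusted p = 1.58e-08) and 1.89 (SE 0.16, limma adjusted p = 5.50e-08), and no treated library came near VEH. COL27A1, a fibrillar gene best known from cartilage, fell. It had 719, 660.1 and 673 counts with VEH, 324, 245, 350.2 and 318 with JQ1 and 284, 309 and 311 with I-BET 762, with log2 fold changes of −1.15 and −1.18.

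The type IV genes that passed the filter, COL4A1, COL4A2 and COL4A5, were all lower with both inhibitors. COL4A1 and COL4A2 encode the chains of the common basement membrane network. They stand head to head on chromosome 13, and the stretch between their RefSeq starts (GRCh38.p14, chr13:110307158-110307283, plus strand) is printed because both genes start from it, with CCAAT and GGGCGG in capitals:
COL4A1-COL4A2 between starts: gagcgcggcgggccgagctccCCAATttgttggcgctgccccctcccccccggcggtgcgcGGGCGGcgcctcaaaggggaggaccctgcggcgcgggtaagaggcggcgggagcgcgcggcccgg

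COL4A1 counts were 1941, 1933 and 2019 with VEH, 959, 789.9, 924 and 809 with JQ1 and 942, 1012 and 953 with I-BET 762. COL4A2 counts were 2548, 2149 and 2539 with VEH, 1331, 979, 1269.6 and 1251 with JQ1 and 1345, 1407 and 1300.4 with I-BET 762. The pair moved by similar amounts, COL4A1 by −1.18 and −1.02 and COL4A2 by −1.0 and −0.83 on the log2 scale. COL4A5, a chain of the network in kidney and smooth muscle basement membranes, is on the X chromosome and had 182, 119 and 166 counts with VEH, 37.4, 54.4, 47.0 and 37.5 with JQ1 and 74.8, 78.2 and 73.8 with I-BET 762. Its log2 fold changes were −1.79 and −1.01, and the 3 groups did not overlap.

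Type VI collagen was split by gene. COL6A1 and COL6A2, neighbours on chromosome 21, were not called, while COL6A3 on chromosome 2 fell with both inhibitors. COL6A3 counts were 36199, 28433 and 31862 with VEH, 5269, 4694, 5227 and 6757 with JQ1 and 9614, 9816 and 9843 with I-BET 762. The log2 fold changes were −2.56 and −1.71, and neither treated group came near VEH. COL6A2 counts were 4108, 3726 and 3976 with VEH, 4959, 3328, 4646 and 3957 with JQ1 and 4040.2, 3967 and 3928 with I-BET 762, so that all groups overlapped. COL6A1 counts were 3272, 2685 and 2866 with VEH, 3348, 2513, 3202 and 3238 with JQ1 and 3136, 3043 and 3008 with I-BET 762, again overlapping. COL6A1 had log2 fold changes of 0.06 with either inhibitor, and COL6A2 had 0.09 and 0.02. The bases before the RefSeq starts of COL6A2 (chr21:46097992-46098111, plus strand) and COL6A3 (chr2:237414165-237414284, minus strand) are printed because these chains of 1 protein differed in response, with GGGCGG and TATAAA in capitals:
COL6A2: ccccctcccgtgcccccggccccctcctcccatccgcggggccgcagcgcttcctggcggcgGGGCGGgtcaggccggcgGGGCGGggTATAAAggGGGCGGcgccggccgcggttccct
COL6A3: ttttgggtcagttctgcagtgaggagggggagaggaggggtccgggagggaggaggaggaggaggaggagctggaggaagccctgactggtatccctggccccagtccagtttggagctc

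The COL6A2 stretch held 17 CG dinucleotides and 82.5% G and C, and the COL6A3 stretch 1 and 63.3%. These are properties of the printed bases, and no binding was measured. No such stretch was available for COL6A1, the other chain that was not called.

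Of 5 tested FACIT genes, 4 fell with both inhibitors and COL9A3 was not called, and without COL16A1, which had to be lower, 3 of 4 fell. Over all tested genes 22.8% were lower with JQ1 and 17.9% with I-BET 762. COL12A1, which decorates type I fibrils, had 1178, 1061 and 1070.2 counts with VEH, 409, 369.9, 419 and 367 with JQ1 and 582, 608 and 654 with I-BET 762. COL21A1, a FACIT member reported from vessel walls, had 2510.4, 2589.5 and 2800.2, then 813, 820.4, 733 and 783, and 1505, 1485 and 1291. Both genes gave 3 groups without overlap, with log2 fold changes of −1.49 and −0.84 for COL12A1 and −1.74 and −0.89 for COL21A1. COL9A2, a chain of cartilage type IX collagen, had 1031, 1012 and 1083 counts with VEH, 674, 445, 485 and 468 with JQ1 and 660.3, 709.8 and 666 with I-BET 762. Its log2 fold changes were −1.03 and −0.62, the latter just past the threshold of 0.585. COL9A3 moved by −0.44 (limma adjusted p = 0.0661) and −0.43 (limma adjusted p = 0.102), and 3.20% of its exon bases overlap TCFL5 on the opposite strand.

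COL16A1, a FACIT gene, was near the detection limit after treatment. Its counts were 16.5, 19.4 and 15.5 with VEH, 0, 1.09, 2.0 and 2.03 with JQ1 and 3.94, 3.01 and 5.91 with I-BET 762. All JQ1 libraries had at most 3 reads, so the gene was at least 5.19-fold lower with JQ1, taking 3 reads per library as the floor. With I-BET 762 the log2 fold change was −1.81.

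COL8A2, whose short chain forms hexagonal lattices, fell with both inhibitors. Its counts were 258, 233 and 251 with VEH, 24.2, 26.1, 28.0 and 37.5 with JQ1 and 31.5, 53.1 and 41.3 with I-BET 762. The log2 fold changes were −3.07 and −2.56, and VEH stood apart from both groups. COL17A1, a transmembrane collagen of epithelial hemidesmosomes, also fell. Its counts were 1172, 1222 and 1168 with VEH, 278, 251, 320.1 and 243 with JQ1 and 280.4, 319 and 311 with I-BET 762, at −2.12 and −1.97 on the log2 scale. The summed epithelial markers EPCAM, CDH1, KRT8, KRT18 and KRT19, of which 4 of 5 passed the filter, were also lower. They lay between 1212 and 1271 normalized counts with VEH, 511 and 602 with JQ1 and 497 and 544 with I-BET 762. KRT19 was the largest part, with means of 741, 246 and 191 in this order. KRT18 had 289, 189 and 207, and KRT8 had 155, 95.3 and 92.7. The part of these markers in the result was not tested. The bases before the RefSeq starts of COL8A2 (chr1:36125223-36125342, minus strand) and COL17A1 (chr10:104085881-104086000, minus strand) are printed to set a stretch with 82.5% G and C beside one with 42.5%, from genes that both fell, with GGGCGG and CCAAT on either strand in capitals:
COL8A2: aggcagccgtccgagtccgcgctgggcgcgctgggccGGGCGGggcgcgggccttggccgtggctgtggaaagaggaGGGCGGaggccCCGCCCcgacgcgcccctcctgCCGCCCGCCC
COL17A1: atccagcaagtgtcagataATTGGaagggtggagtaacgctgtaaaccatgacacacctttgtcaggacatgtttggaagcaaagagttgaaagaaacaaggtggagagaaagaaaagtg

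Of the other transmembrane genes, COL13A1, known from the neuromuscular junction, fell from 224, 229 and 207 counts to 63.7, 54.4, 62.0 and 61.9 with JQ1 and 80.7, 70.2 and 50.2 with I-BET 762. Its log2 fold changes were −1.85 and −1.73, with no overlap with VEH. COL23A1 was low in all groups, with means of 16.9 ± 7.04, 20.2 ± 7.07 and 21.1 ± 2.18 counts (SD), and was not called. COL26A1, which fits no other class, fell from 96.9, 102 and 91.0 counts to 39.6, 23.9, 22.0 and 28.4 with JQ1 and 43.3, 50.1 and 34.5 with I-BET 762, at −1.76 and −1.18.

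COL7A1 and COL18A1 went the other way. COL7A1, the chain of anchoring fibrils, had 168, 180.3 and 196 counts with VEH, 301, 246, 301 and 329.6 with JQ1 and 277, 231 and 256 with I-BET 762. It rose by 0.69 on the log2 scale with JQ1, and with I-BET 762 its difference of 0.49 (limma adjusted p = 0.00212) was under 1.5-fold with every library above VEH. Scaled to equal totals, the JQ1 value was 0.51 and no longer past 1.5-fold.

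COL18A1, the multiplexin that carries endostatin, had 1266, 1214 and 1394 counts with VEH, 2399, 1562, 2339 and 1756 with JQ1 and 2196, 2289 and 2162 with I-BET 762. All treated libraries were above VEH, at log2 fold changes of 0.62 (SE 0.12, limma adjusted p = 0.000169) and 0.78 (SE 0.12, limma adjusted p = 5.19e-05). The JQ1 value was 0.58 without VEH replicate 14, 0.53 without JQ1 replicate 17 and 0.54 without JQ1 replicate 19, each under 1.5-fold, and 0.43 with equal totals. Of its exon bases 18.5% overlap SLC19A1 on the opposite strand, and the strand setting of the counting is not given in the sources used here, so reads from there may be shared. COL15A1, the other multiplexin, was not called, with means of 11.1 ± 9.15, 7.22 ± 6.17 and 9.92 ± 3.65 counts.

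The other 17 collagen genes did not pass the filter. They were COL4A3, COL4A4, COL4A6, COL5A3, COL6A6, COL8A1, COL9A1, COL10A1, COL11A1, COL11A2, COL14A1, COL19A1, COL20A1, COL22A1, COL24A1, COL25A1 and COL28A1. Of these, 13 had at most 3 reads in every library, and the highest value was 15 reads, for COL5A3. With the filter removed, COL24A1, a fibrillar gene, was called higher with both inhibitors, COL5A3 higher with I-BET 762 and COL4A6 lower with JQ1. These rest on at most 9 reads for COL24A1, 15 for COL5A3 and 2 for COL4A6, and levels this low are not resolved at this depth.

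JQ1 and I-BET 762 were compared directly at the same dose and time over the 26 genes, with p-values adjusted over all tested genes. The difference passed the threshold for 7 genes, all lower with JQ1 and 0 higher, against 5.31% of all tested genes called, 3.59% lower and 1.73% higher. They were COL1A1 at −1.26 (limma adjusted p = 0.00220), COL3A1 at −1.10 (6.11e-08), COL21A1 at −0.85 (4.72e-07), COL6A3 at −0.84 (1.83e-05), COL4A5 at −0.78 (0.00441), COL12A1 at −0.65 (1.74e-05) and COL5A1 at −0.61 (0.00197), each as log2 of JQ1 over I-BET 762 and each from limma. The difference for COL5A1 was −0.49 without JQ1 replicate 18 and −0.54 without I-BET 762 replicate 22, both under 1.5-fold. COL1A2 (−0.35) and COL9A2 (−0.41) passed the adjusted p alone. Point estimates were lower with JQ1 for 23 of the 26, with a median difference of −0.26, against −0.00012 over all tested genes. JQ1 replicate 18 was the lowest of the 4 JQ1 libraries for 15 of the 26. How often either held over all tested genes was not counted.

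For other genes the compounds were not told apart, and the 95% confidence intervals of the log2 difference show how large a gap remains possible. The interval ran from −0.37 to 0.26 for COL2A1, from −0.20 to 0.25 for COL27A1, from −0.35 to 0.04 for COL17A1 and from −0.19 to 0.18 for COL6A1. A gap of 1.5-fold lies outside each of these 4 intervals. For the low genes COL15A1 (−1.78 to 0.61) and COL23A1 (−0.80 to 0.58) the intervals were wide and include a gap of 1.5-fold. The intervals of COL16A1 (−2.37 to −0.24), COL26A1 (−1.04 to −0.13) and COL8A2 (−0.92 to −0.09) lay below 0, but their limma adjusted p-values of 0.0667, 0.0524 and 0.0654 missed the threshold. COL16A1, COL26A1 and COL8A2 have low counts, and some alternatives called them. The intervals of the more abundant COL5A2 (−0.24 to −0.02) and COL4A1 (−0.31 to −0.01) also lay below 0. Their limma adjusted p-values were 0.0844 and 0.105, and a gap of 1.5-fold lies outside both intervals.

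Ratios between chains of 1 collagen type, taken per kb within each library, followed how the chains moved. COL6A3 to COL6A2 was 2.02 ± 0.149 with VEH (SD, n = 3), 0.329 ± 0.0734 with JQ1 (n = 4) and 0.608 ± 0.0163 with I-BET 762 (n = 3), with no overlap. COL1A1 to COL1A2 was 0.0114 ± 0.00198, 0.00177 ± 0.000472 and 0.00339 ± 0.000275, and COL5A1 to COL5A2 was 0.0128 ± 0.00172, 0.00291 ± 0.000561 and 0.00404 ± 0.000369, all treated libraries being below VEH. COL6A1 to COL6A2 stayed at 0.719 ± 0.0421, 0.708 ± 0.0635 and 0.742 ± 0.00544, and these groups overlapped. COL4A1 to COL4A2 was 1.08 ± 0.0943, 0.954 ± 0.0857 and 0.943 ± 0.0216, where the JQ1 libraries overlapped VEH and the I-BET 762 libraries were all below. COL9A3 to COL9A2 went up with JQ1, from 0.0811 ± 0.0155 to 0.122 ± 0.0265 with all libraries above VEH, and was 0.0914 ± 0.00501 with I-BET 762, overlapping VEH. COL4A5 to COL4A1 overlapped VEH with either inhibitor, at 0.0978 ± 0.0201, 0.0633 ± 0.0157 and 0.0964 ± 0.00145. These ratios were not tested. Exon length was the union over all annotated transcripts, so a ratio's absolute size depends on the annotation while its change between groups does not.

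**Figure D4:**
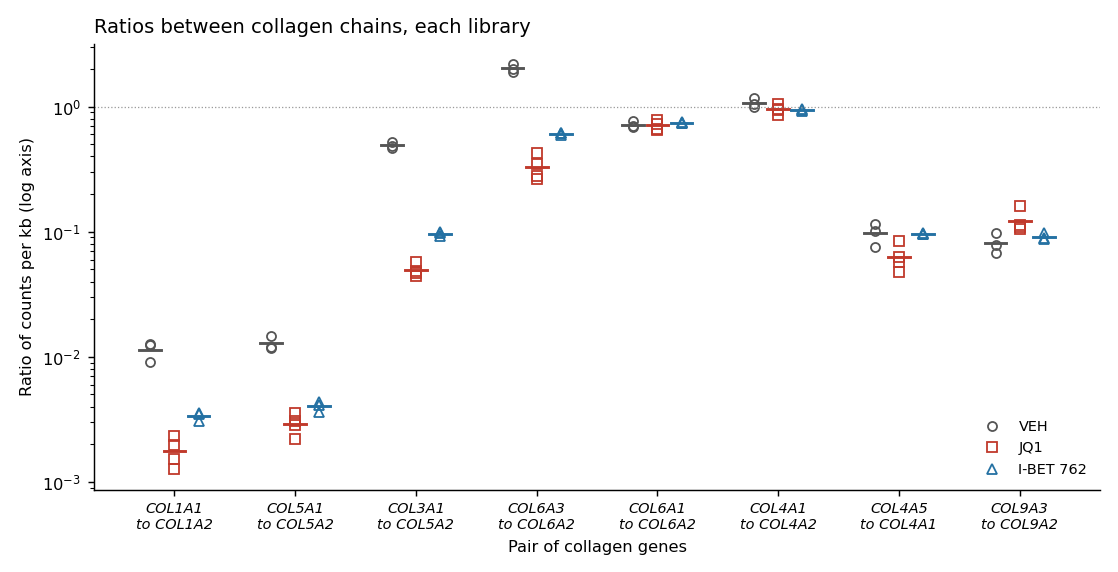
Ratio of the levels per kb of chain pairs in every library, on a log axis, with 1 point per library for VEH, JQ1 and I-BET 762. COL6A3 to COL6A2 falls from about 2.02 to 0.329 and 0.608, while COL6A1 to COL6A2 stays near 0.7 in all 3 groups.

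Collagen chains are hydroxylated, glycosylated, folded, exported, trimmed and crosslinked by other proteins, and 51 genes of these steps and of collagen receptors were listed, of which 42 passed the filter. With JQ1, 17 of the 42 fell and 5 rose, and the median change was −0.23 on the log2 scale. With I-BET 762, 16 fell and 4 rose, and the median change was −0.28. Of all tested genes 22.8% and 17.9% were lower and 13.3% and 8.96% higher, so the rises were near the share over all genes. ITGA2 passed the filter only through the treated groups and therefore had to be higher, and without it 4 of 41 rose with JQ1 and 3 of 41 with I-BET 762, with medians of −0.35 and −0.33. The 16 genes that fell with both were the genes of hydroxylases and their complexes P4HA2, PLOD3, P3H2 and P3H4, the chaperones FKBP10 and FKBP14, the galactosyltransferase COLGALT2, the export genes MIA2 and SEC24D, the processing genes ADAMTS2, PCOLCE and PCOLCE2, and LOX, LOXL1, LOXL3 and LOXL4. P4HA3, TMEM38B, TLL2 and ITGA2 rose with both, at log2 fold changes of 0.79 and 0.81 for P4HA3. TLL1, FMOD, BGN, DDR1, LAIR1 and GP6 were not analysed here, and ADAMTS3, DCN and LUM were under the filter.

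The crosslinking enzymes LOX, LOXL1, LOXL3 and LOXL4, which oxidise lysines of collagen, fell with both inhibitors. LOXL2, the highest of these enzymes with VEH at 257 ± 21.9 normalized counts per kb, moved up and stayed under 1.5-fold. Its log2 fold change was 0.27 with JQ1 (limma adjusted p = 0.00185), with libraries overlapping VEH. With I-BET 762 it was 0.40 (limma adjusted p = 0.000146), with all libraries above VEH. LOXL4 went from 64.2 ± 12.1 counts with VEH to 9.27 ± 2.61 with JQ1 and 10.2 ± 2.41 with I-BET 762 (SD), log2 fold changes of −2.68 and −2.54. LOXL1 went from 309 ± 13.9 to 132 ± 30.0 and 128 ± 4.70. Of 6 tested genes of propeptide cleavage, 3 fell with each inhibitor, 1 rose and 2 (BMP1 and ADAMTS14) were not called. Over all tested genes 22.8% were lower with JQ1 and 17.9% with I-BET 762, and 13.3% and 8.96% were higher. BMP1 moved by −0.56 and −0.46 on the log2 scale (limma adjusted p = 1.80e-06 and 4.89e-05). Both values were under 1.5-fold, with every treated library below VEH. ADAMTS2, which removes the amino propeptide, fell by 2.24 and 1.67 on the log2 scale, and PCOLCE, which enhances removal of the carboxyl propeptide, by 1.73 and 1.52. TLL2, a protease related to BMP1, rose by 1.71 and 1.27.

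Among the hydroxylases, JQ1 raised P4HA1, a catalytic subunit of prolyl 4-hydroxylase, from 7219.6 ± 324 to 13011 ± 1179.7 counts, and I-BET 762 libraries held 8107 ± 349.8. P4HA1 was higher with JQ1 than with I-BET 762 by 0.68 on the log2 scale (limma adjusted p = 2.52e-06), as was PLOD2, a lysyl hydroxylase, by 0.60 (limma adjusted p = 0.00179). Against VEH, PLOD2 was not called, at 0.26 with JQ1 (limma adjusted p = 0.0592) and −0.33 with I-BET 762 (limma adjusted p = 0.0321). P4HA2, the other main catalytic subunit of prolyl 4-hydroxylase, fell by 0.96 and 0.73. FKBP10, a collagen chaperone, fell by 1.20 and 0.90, while SERPINH1, the collagen chaperone HSP47, moved by −0.51 and −0.46 and stayed under 1.5-fold. TMEM38B, a channel of the endoplasmic reticulum needed for collagen assembly, rose by 1.44 and 1.19. The collagen receptor DDR2 fell by 1.02 with JQ1, and its value of −0.57 with I-BET 762 was just short of the threshold. ITGA2, a collagen-binding integrin chain, had means of 16.3 ± 1.84 and 15.5 ± 6.47 counts against 1.90 ± 1.94 with VEH.

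**Figure D5:**
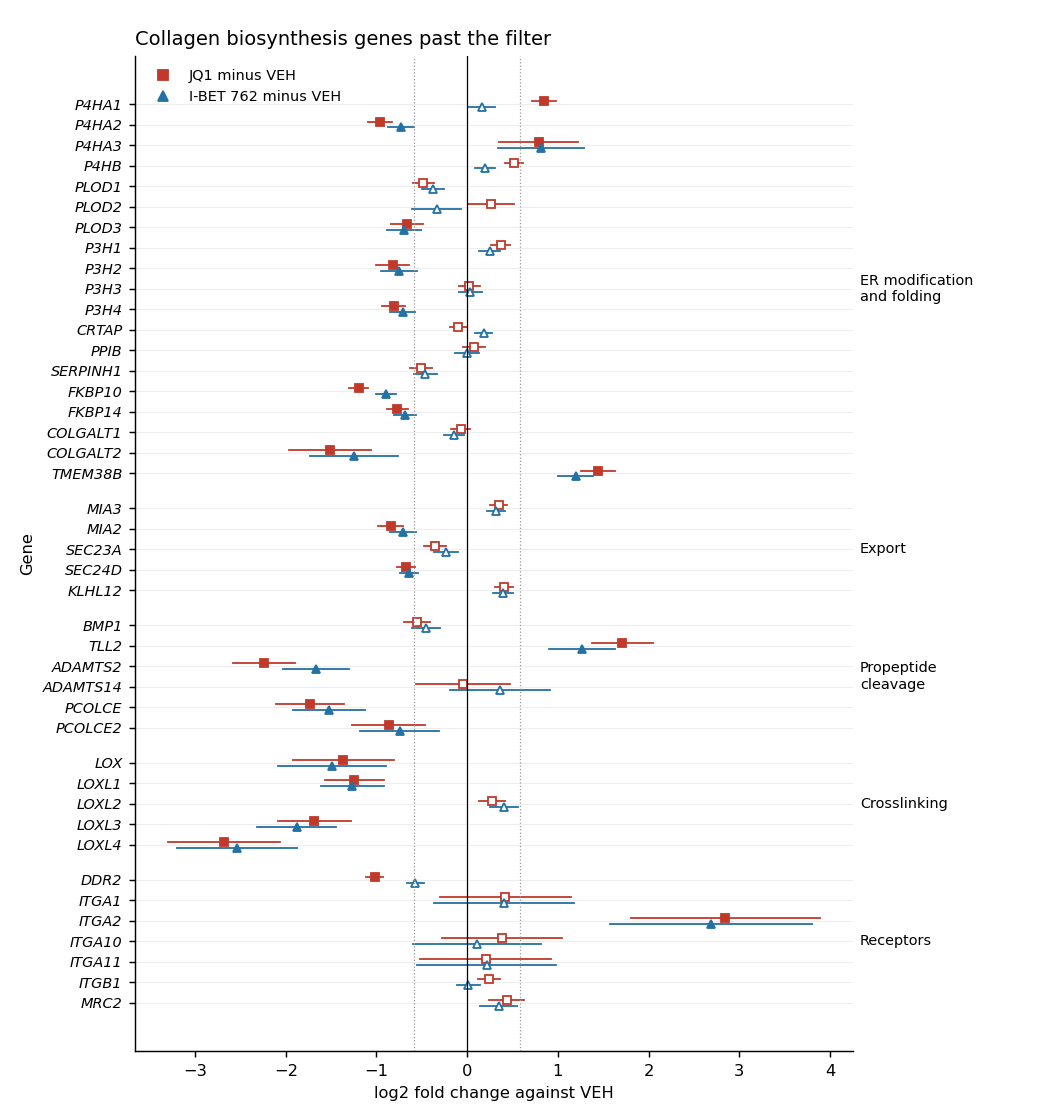
Log2 fold change with JQ1 and with I-BET 762 against VEH for the 42 tested genes of collagen modification, folding, export, processing, crosslinking and binding, grouped by step, with bars for the 95% confidence interval from limma and filled points for called genes. LOXL4 and ADAMTS2 lie far to the left and ITGA2, TLL2 and TMEM38B to the right, and for P4HA1 and PLOD2 the JQ1 point lies to the right of the I-BET 762 point.

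RefSeq promoter windows of 300 bases were matched for 19 of the 26 tested collagen genes. None was available for COL1A1, COL1A2, COL2A1, COL3A1, COL5A2, COL6A1 and COL9A3. The letters GGGCGG, read on both strands, were in windows of 14 of the 19, against 45.0% of 35116 windows of the same length. CCAAT was in windows of 4 (COL4A1, COL4A2, COL4A5 and COL17A1), against 34.6%, and TATAAA in windows of 5 (COL6A2, COL7A1, COL13A1, COL17A1 and COL18A1), against 11.5%. A gene can have several windows and was counted when any of them matched. The percentages are of single windows, so the counts and percentages are not in the same unit. A match describes letters only. TATAAA was in the windows of 2 genes that rose with JQ1 (COL7A1 and COL18A1), 2 that fell (COL13A1 and COL17A1) and COL6A2, which was not called.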

How the data were processed

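RNA-seq of SK-UT-1 cells was described by labels for 12 libraries, 4 per group. The expression table covers 10, and VEH replicate 16 and I-BET 762 replicate 24 were not analysed here. The authors trimmed reads with Trimmomatic, aligned them to hg38 with HISAT2 2.2.1, counted Gencode V41 genes with featureCounts 2.0.3, normalized the counts with DESeq2 and left out samples they judged outliers. Each deposited value is a normalized count plus 1 on the log2 scale. Undoing this gave whole reads for 99.73% to 99.77% of values (within 0.01 read). Prior results of these data were known when the collagen classes, the biosynthesis list and the marker lists were chosen. A linear model of the log2 values, with pseudocount 1, was fitted to all 10 libraries with an intensity trend (limma 3.58.1, R 4.3.3), and p-values were adjusted by Benjamini-Hochberg over 14839 genes. The limma code was tested on simulated data. Exon lengths and positions came from Gencode V44 and promoter windows from RefSeq GRCh38.p14. All collagen genes are named, with values per library for those called in a comparison or among the 5 highest per kb, and so are the biosynthesis genes called with both inhibitors, others of that list being chosen after their values were seen. The alternatives were other pseudocounts, filters, scalings, thresholds, moderation without a trend, 2 groups alone, limma-voom and leaving out each library. No batch is given in the labels.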

Additional observations from a re-analysis of the deposited data

Results flagged for a closer look

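In the JQ1 group, the only one with 4 libraries, the highest or lowest library of 27 measures was compared with the others by Dixon's test at the 95% level, which flags about 1 in 20 groups by chance, and 3 were flagged. JQ1 replicate 20 was high for COL3A1, at 11.57 on the log2 scale or 3039 normalized counts, with the other three between 2472 and 2549. JQ1 replicate 18 was low for COL6A1, at 11.3 or 2513 counts against 3202 to 3348. JQ1 replicate 17 was high for COL15A1, at 4.13 or 16.5 counts against 4.0 to 4.35. The fall of COL3A1 was called without each library in turn, and COL6A1 and COL15A1 were called in none of these fits.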

How the results depend on the processing

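The direction of every collagen call held under all alternatives run. The number of collagen genes called stayed within 1.5 times its main value for JQ1 and I-BET 762 under each alternative, and leaving out 1 library gave 19 to 20 with JQ1, 18 with I-BET 762 and 6 to 9 between the inhibitors. A threshold of 2-fold left 2 of the 7 differences between the inhibitors. Of the biosynthesis genes, 12 were then called with JQ1 in place of 22, and 10 with I-BET 762 in place of 20. With I-BET 762 these counts were 13 for genes with a mean count of at least 100, which tests fewer genes, and 35 with no fold threshold, and leaving out 1 library gave 22 to 23 and 20 to 21. Shares of all tested genes were not counted under these alternatives, so the counts describe the listed genes only. The collagen share was 0.1703% with VEH, 0.08331% with JQ1 and 0.1072% with I-BET 762 per exon length, and 0.2871%, 0.08304% and 0.1186% without COL5A2. With equal totals COL9A3 was called lower with JQ1 (−0.62, limma adjusted p = 0.0198). Between the inhibitors COL8A2, COL16A1 and COL26A1 became called under some alternatives, for example with equal totals at −0.60, −1.35 and −0.67, and the cause was not tested. No paired analysis was possible because the replicate numbers 13 to 24 all differ between groups.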
